A study of Mus musculus with 6 samples.

Results

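The genes described here are 37 genes of cholesterol and fatty acid synthesis and of cholesterol export, taken by name from whole lung RNA of female C57BL/6N wild-type mice. They fall into 5 roles: 16 enzymes of the sterol pathway, 6 genes that control or respond to the sterol-sensing system, 6 genes of fatty acid synthesis, 7 elongases and desaturases, and 2 cholesterol exporters. All 37 were found among the 40842 reference genes of the deposited tables. All 37 also had a mean of at least 1 FPKM (fragments per kilobase, adjusted for library size) over the 6 libraries, so all were among the 13908 genes tested. The control group has 3 libraries of untreated lung. The irradiated group has 3 libraries of lung taken 100 days after 1 dose of 20 Gy given as 9 MeV electrons, and the labels give the controls the same 100 days. The labels name neither the exposed part of the body nor the age of the mice, and whether each library is another mouse is not stated, so a p-value reflects no more than the spread among these 6 libraries, which may be technical.

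Cells make cholesterol from acetyl-CoA through mevalonate, isoprenoids, squalene and lanosterol, and they make fatty acids from the same precursor with acetyl-CoA carboxylase and fatty acid synthase. Both branches are switched on by the SREBP transcription factors, which SCAP escorts out of the endoplasmic reticulum when sterols are scarce and which INSIG proteins hold back when sterols are plentiful. In lung, alveolar type 2 cells use these lipids to build surfactant, a film rich in saturated phosphatidylcholine and cholesterol, and alveolar macrophages clear it and export the cholesterol. The comparison of the 2 groups asks how far the genes of this lipid supply differ in lung long after radiation.

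Promoter sequences of 3 genes that differed together between libraries (Hmgcs1, Msmo1 and Insig1) and of the gene that stood apart from them (Pmvk) are shown first. They are the 250 bases before the annotated start in the RefSeq promoter table (GRCm38.p6), 5′ to 3′ on the strand of the gene. Capitals mark the letters of 3 of the 4 motifs searched on both strands: TCACNCCAC (core of the sterol regulatory element bound by SREBP), CCAAT or its complement ATTGG (the box bound by NF-Y, a partner of SREBP) and CACGTG (an E-box).
Hmgcs1, chr13:119690101-119690350, plus strand: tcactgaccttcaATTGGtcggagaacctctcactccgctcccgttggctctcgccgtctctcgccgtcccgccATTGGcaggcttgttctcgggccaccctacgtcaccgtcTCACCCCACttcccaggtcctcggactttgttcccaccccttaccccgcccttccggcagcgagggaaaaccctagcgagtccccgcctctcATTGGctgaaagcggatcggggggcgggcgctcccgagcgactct
Msmo1, chr8:64733579-64733828, minus strand: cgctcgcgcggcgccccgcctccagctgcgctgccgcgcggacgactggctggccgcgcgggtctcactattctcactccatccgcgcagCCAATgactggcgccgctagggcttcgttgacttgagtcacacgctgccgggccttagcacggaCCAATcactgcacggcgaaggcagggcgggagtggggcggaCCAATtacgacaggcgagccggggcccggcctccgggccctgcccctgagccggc
Insig1, chr5:28071162-28071411, plus strand: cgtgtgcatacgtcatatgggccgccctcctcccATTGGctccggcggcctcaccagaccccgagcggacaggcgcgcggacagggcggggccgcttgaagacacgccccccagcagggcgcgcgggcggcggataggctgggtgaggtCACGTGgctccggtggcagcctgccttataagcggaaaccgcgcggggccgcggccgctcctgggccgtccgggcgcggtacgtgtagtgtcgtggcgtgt
Pmvk, chr3:89454291-89454540, plus strand: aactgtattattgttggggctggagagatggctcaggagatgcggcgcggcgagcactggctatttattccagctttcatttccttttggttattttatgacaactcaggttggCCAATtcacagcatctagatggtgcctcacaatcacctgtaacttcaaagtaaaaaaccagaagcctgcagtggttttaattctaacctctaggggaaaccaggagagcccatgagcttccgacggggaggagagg

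In these windows Hmgcs1 has the sterol regulatory element letters 137 bases before the start and a CCAAT box in the reverse direction at 237, 176 and 45 bases. Msmo1 has CCAAT boxes at 160, 96 and 55 bases. Insig1 has a reversed CCAAT box at 216 bases and an E-box at 101 bases. The Pmvk window has a CCAAT box at 136 bases. No 2 of the marked stretches overlap.

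The table holds windows for 29 of the 37 genes. Abcg1, Fads1, Fdft1, Fdps, Scd1, Scd2, Sqle and Stard4 have no entry. CCAAT in either direction was found in 22 of the 29 (75.9%), against 37.5% of all 27025 genes with windows of this length. By role it was in 12 of 13 sterol pathway genes, 4 of 5 control genes, 4 of 6 fatty acid synthesis genes, 2 of 4 elongases and desaturases, and not in Abca1. The E-box letters were found in 7 of the 29 (24.1%, against 6.86% of all genes) and the sterol regulatory element letters in 1, Hmgcs1 (3.45%, against 1.22%). The last motif, AGGTCA repeated after a gap of 4 bases, an exact form of the element bound by the oxysterol receptor LXR, was found in 0 of the 29 and in 0.0148% of all genes. Such matches describe letters in a window and are not binding sites.

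None of the 37 genes was called, which takes an adjusted p under 0.05 in limma over all genes tested, where 0.18% of genes were called (25 of 13908). Of those 25, 9 were higher (0.0647%) and 16 lower (0.115%) in irradiated lung, a split that became 7 and 6 when libraries were scaled to a common sum. Pmvk, the phosphomevalonate kinase of the mevalonate pathway, came closest and had the largest difference of the 37 on the log2(FPKM + 1) scale. At an unadjusted p under 0.05, 2 of the 37 had higher levels in irradiated lung (Pmvk and the cholesterol exporter Abca1) and 1 had a lower level (the ATP citrate lyase Acly), while over all genes 17.7% passed this rule, 7.41% higher and 10.3% lower. The groups did not overlap for 5 of the 37, 2 higher (Pmvk and Abca1) and 3 lower (Acly, Srebf1 and Stard4). Over all genes tested 9.91% were higher and 14.6% lower without overlap, beside 5.41% and 8.11% of the 37, so groups that do not overlap were no more frequent here than over all genes. With libraries scaled to a common sum, the lower genes Acly, Srebf1 and Stard4 overlapped, and 2 members were higher and 0 lower without overlap (20.5% and 6.52% of all genes). With median-ratio scaling Abca1 overlapped and Scap was higher without overlap. Srebf1 also overlapped, without scaling, at the locus assembled from each library's own reads. The median difference over the 37, irradiated minus control, was −0.06, beside −0.03 over all genes tested.

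**Figure D1:**
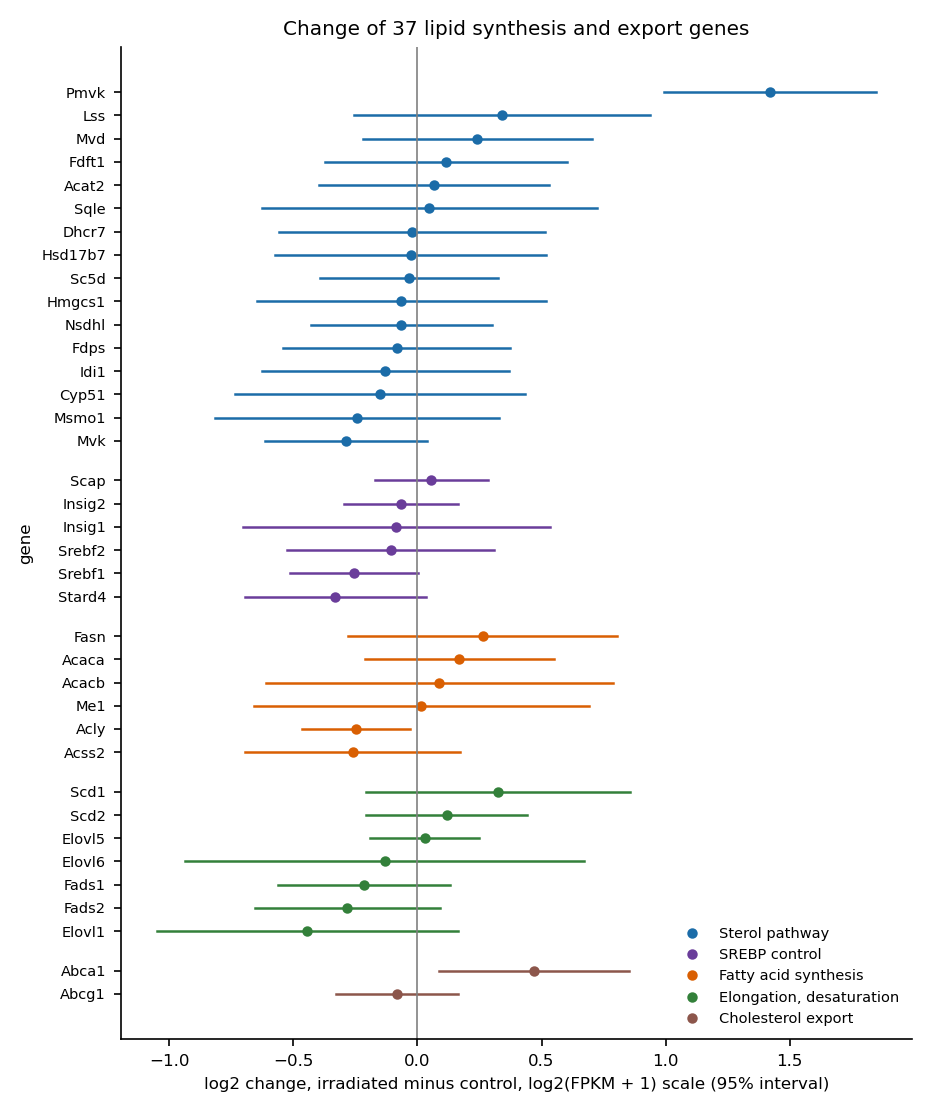
Difference between irradiated and control lung for each of the 37 genes (points, log2(FPKM + 1) scale, horizontal axis) with its 95% interval from limma (lines), grouped by role. Pmvk stands at 1.42 with an interval from 0.99 to 1.85, and the intervals of 34 genes include 0.

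The depth implied by the deposited coverage and FPKM was 10.4 Gb of aligned sequence in irradiated 2, the deepest library, 5.11 Gb in irradiated 3, the shallowest, and up to 6.77 Gb in the other 4. The surfactant genes of alveolar type 2 cells were at the levels of lung (Sftpc at 14677 to 16828 FPKM in control lung and 8741 to 9588 FPKM in irradiated lung). Irradiated 2 also stood apart by its blood cells: 8 neutrophil markers summed to 4823 FPKM there, against 220 and 1406 FPKM in irradiated 1 and 3 and 75.2 to 500 FPKM in the controls, and 6 red cell markers to 6253 FPKM, against 1347 to 1708 FPKM in the other 5. Control 2 stood apart by fat and heart muscle: 13 adipocyte markers summed to 638 FPKM there, to 311 FPKM in irradiated 1 and 175 FPKM in irradiated 3, and to 28.7 to 67.2 FPKM in the other 3, and 7 cardiac markers to 452 FPKM, against 19.3 to 211 FPKM. In bulk RNA, fewer cells of a type and less RNA per cell cannot be told apart.

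Pmvk makes mevalonate diphosphate from mevalonate phosphate, in the early, mevalonate part of the pathway. Control 1 to 3 held 12.1, 14.996 and 14.4 FPKM of its RNA and irradiated 1 to 3 held 40.2, 48.0 and 29.6 FPKM. The lowest irradiated library thus lay above the highest control. In FPKM, irradiated 2, with the highest neutrophil sum, was the highest, and irradiated 3, with the next highest sum, was the lowest irradiated library. Those sums were 161, 75.2 and 500 FPKM in control 1 to 3 and 220, 4823 and 1406 FPKM in irradiated 1 to 3. The part of neutrophil RNA in the level of Pmvk was not tested. The ratio of the group means was 2.84, and the difference on the log2(FPKM + 1) scale was 1.42 ± 0.18 (SE, n = 3 libraries per group), with a limma adjusted p of 0.0532. By p-value Pmvk was the 29th of 13908 genes, and 25 passed. Without irradiated 2 the difference was 1.27 (limma adjusted p = 0.0864), without irradiated 3 it was 1.60 (0.0324), and without both control 2 and irradiated 2 it was 1.32 (0.161).

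The gene lies on chromosome 3 (GRCm39, 89361848 to 89376321, plus strand). The files also list, for each library, an unnamed locus assembled from that library's own reads, and at Pmvk this locus began 4577 bases downstream of the reference start in all 6 libraries. The printed window belongs to the reference start. The assembled locus gave 12.5, 15.4 and 15.1 FPKM without radiation and 40.2, 47.4 and 30.3 FPKM with it, and with assembled values for the 37 genes Pmvk passed (limma adjusted p = 0.0484). Coverage per Gb of aligned sequence, another measure of the same reads, was 3.10, 3.76 and 3.998 in the controls and 8.71, 10.2 and 9.58 in the irradiated libraries. In this measure, unlike in FPKM, the irradiated libraries had the order of their neutrophil sums, with irradiated 1 lowest and irradiated 2 highest. The neighbour Pbxip1 ends 3588 bases before Pmvk on the same strand and was at 26.4 to 27.3 FPKM in control lung and 31.1 to 33.2 FPKM in irradiated lung (log2 difference 0.24, limma adjusted p = 0.182).

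The other 15 sterol pathway enzymes had a median difference of −0.03, and none of them had groups that did not overlap. Among these 15, log2 differences lay between −0.29 (Mvk) and 0.34 (Lss), and limma adjusted p-values between 0.329 and 0.971. Single libraries moved both ends: Lss was at 0.060 without irradiated 3 and at 0.57 without irradiated 2, and Mvk at −0.18 without irradiated 2. Mvk, the kinase that acts just before Pmvk, was at 9.06, 9.40 and 9.51 FPKM in control lung and 7.13, 6.22 and 9.27 FPKM in irradiated lung. Mvd, the decarboxylase that acts just after it, was at 5.43, 8.28 and 5.19 FPKM and at 7.11, 6.37 and 9.20 FPKM. The ratio of Pmvk to Mvk within a library was 1.33 to 1.60 in the controls and 3.19 to 7.71 in the irradiated libraries, and that of Pmvk to Mvd was 1.81 to 2.78 and 3.22 to 7.53. Both ratios were higher in each irradiated library than in any control.

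Hmgcs1, the synthase that commits acetyl-CoA units to the pathway, was at 23.1, 28.4 and 22.0 FPKM unexposed and 24.1, 15.9 and 32.5 FPKM after exposure. Sqle, the squalene epoxidase, was at 13.0, 14.95 and 9.96 FPKM and at 13.0, 8.53 and 19.3 FPKM. In both genes the irradiated libraries lay on both sides of the controls. For Hmgcs1 the 95% interval of the log2 difference ran from −0.65 to 0.52, and for Sqle from −0.63 to 0.72, so differences of moderate size in either direction were not detectable with these libraries.

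This spread had a common order. The orders counted here were chosen after the values of these genes were seen, so the shares describe these libraries and are no test. In 15 of the 15 enzymes other than Pmvk, irradiated 3 was the highest and irradiated 2 the lowest of the irradiated libraries, an order that 33.3% of all genes tested had. Scaling lowered the share of all genes with this order to 27.8% with a common sum, 25.4% with the upper quartile and 18.4% with median ratios, and it stayed at 15 of 15 in these enzymes. In 12 of the 15 irradiated 3 was the highest of all 6 libraries, and in 12 irradiated 2 was the lowest of all 6, against 25.2% and 36.9% of all genes. Among the controls, control 2 was the highest in 13 of the 15, against 42.7% of all genes. Relative to the control mean, the median of these 15 enzymes was −0.04, 0.19 and −0.12 in the 3 controls, and it was 0.01, −0.41 and 0.34 in the 3 irradiated libraries. The median of all genes tested was −0.13 in irradiated 2 and 0.04 in irradiated 3. Depth had the opposite order in irradiated 2 (10.4 Gb) and irradiated 3 (5.11 Gb). The sum of the 7 cardiac muscle markers had this order too, with control 2 highest of the controls, irradiated 3 highest and irradiated 2 lowest of the irradiated libraries. It was 64.3, 452 and 78.4 FPKM in control 1 to 3 and 166, 19.3 and 211 FPKM in irradiated 1 to 3. Each of the 7 markers had this order except Actc1, which was at 41.9, 8.18 and 26.1 FPKM in irradiated 1 to 3, highest in irradiated 1. The adipocyte sum was also lowest in irradiated 2, but of the irradiated libraries it was highest in irradiated 1. The part of depth and of heart muscle, fat and blood cell RNA in this order was not tested.

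**Figure D2:**
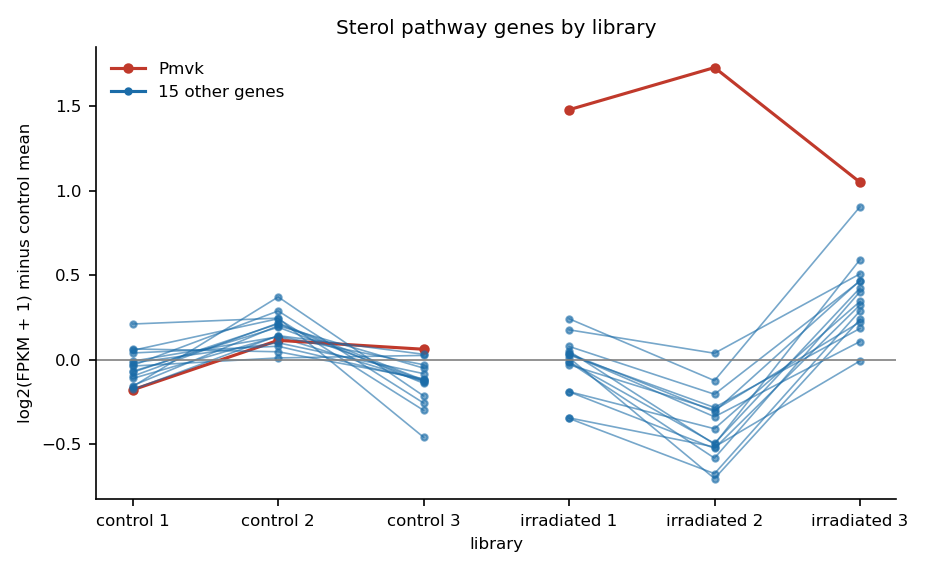
Level of each of the 16 sterol pathway genes in each library, as log2(FPKM + 1) minus the mean of the controls. Lines join the 3 values of a gene within a group and carry no order. The 15 genes other than Pmvk lie lowest in irradiated 2 and highest in irradiated 3 among the irradiated libraries, and Pmvk lies above 1 in all 3.

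The remaining enzymes of this role show the same spread, as mean ± SD over 3 libraries per group in the order control and irradiated. Acat2, the cytosolic thiolase of the first step, was at 9.89 ± 1.00 against 10.6 ± 3.15 FPKM. Of the isoprenoid enzymes, the isomerase Idi1 was at 7.04 ± 0.531 against 6.55 ± 2.28 FPKM and the farnesyl diphosphate synthase Fdps at 30.0 ± 2.77 against 28.9 ± 8.32 FPKM. Fdft1, the squalene synthase, was at 10.96 ± 2.30 against 12.02 ± 3.07 FPKM, and it overlaps the protease gene Ctsb on the other strand by 774 bases (Ctsb log2 difference 0.01).

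Lss, the lanosterol synthase that closes the sterol rings, was at 4.44, 4.60 and 3.87 FPKM without radiation and 5.26, 3.86 and 8.91 FPKM with it, with irradiated 3 the highest and irradiated 2 the lowest of the 6 libraries. Cyp51, Msmo1 and Nsdhl, which remove the methyl groups of lanosterol, had log2 differences of −0.15 ± 0.25, −0.24 ± 0.24 and −0.06 ± 0.15. Hsd17b7, the sterol ketone reductase, was at 2.64 ± 0.236 against 2.69 ± 1.15 FPKM. Of the late enzymes, the desaturase Sc5d was at 18.7 ± 2.17 against 18.4 ± 3.47 FPKM and Dhcr7, which makes cholesterol from its last precursor, at 3.06 ± 1.02 against 2.94 ± 0.631 FPKM. The SD in irradiated lung was above that of the controls for each of these enzymes except Dhcr7. Dhcr7 is also the sterol enzyme whose assembled locus differed most from its reference entry, by 0.996 to 2.84 times over the libraries, so its level is uncertain.

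Among the 6 genes of sterol sensing and control, Srebf1 and Stard4 had lower levels in all 3 irradiated libraries than in any control. This was in the deposited FPKM of the reference entries, and neither gene passed the test. With libraries scaled to a common sum both overlapped, and the log2 differences were −0.13 for Srebf1 and −0.22 for Stard4. Srebf1 encodes the SREBP form that drives mainly fatty acid synthesis. It was at 23.2, 24.8 and 23.0 FPKM in control lung and 18.4, 18.1 and 22.8 FPKM in irradiated lung, with irradiated 3 just below the lowest control (log2 difference −0.26 ± 0.11, limma adjusted p = 0.282). The assembled locus for Srebf1 gave 24.9 against 22.4 FPKM as group means. Stard4, a carrier of cholesterol between membranes and an SREBP target, was at 7.82, 8.56 and 7.87 FPKM unexposed and 6.71, 4.74 and 7.48 FPKM after exposure (−0.33 ± 0.15, limma adjusted p = 0.318). Without irradiated 2 the Stard4 difference was −0.17. In deposited FPKM both genes were lowest in irradiated 2 and highest in irradiated 3 of the irradiated libraries (Srebf1 at 18.1 and 22.8 FPKM). This was the order seen in the sterol enzymes. Stard4 kept it after each scaling. Srebf1 did not: irradiated 1 was then its lowest library (19.2 against 19.4 FPKM in irradiated 2 with a common sum).

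Insig1, which retains SCAP and is itself an SREBP target, was at 24.0, 31.2 and 21.1 FPKM without radiation and 22.9, 16.9 and 33.9 FPKM with it, again on both sides of the controls. Srebf2, the SREBP form that drives mainly the sterol pathway, was at 37.2, 36.5 and 30.3 FPKM and at 30.9, 25.7 and 41.1 FPKM. The escort Scap (14.0 ± 0.635 against 14.7 ± 1.40 FPKM) and Insig2 (14.3 ± 0.801 against 13.6 ± 1.26 FPKM) varied less, with 95% intervals of the log2 difference from −0.17 to 0.28 and from −0.29 to 0.16. In deposited FPKM, 5 of these 6 genes had irradiated 3 highest and irradiated 2 lowest of the irradiated libraries (33.3% of all genes tested). In 6 of the 6 irradiated 2 was the lowest of all libraries (36.9% of all genes tested). With libraries scaled to a common sum, irradiated 2 was no longer the lowest of all for Srebf1, Scap and Insig2. The median difference over the 6 genes was −0.10.

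**Figure D3:**
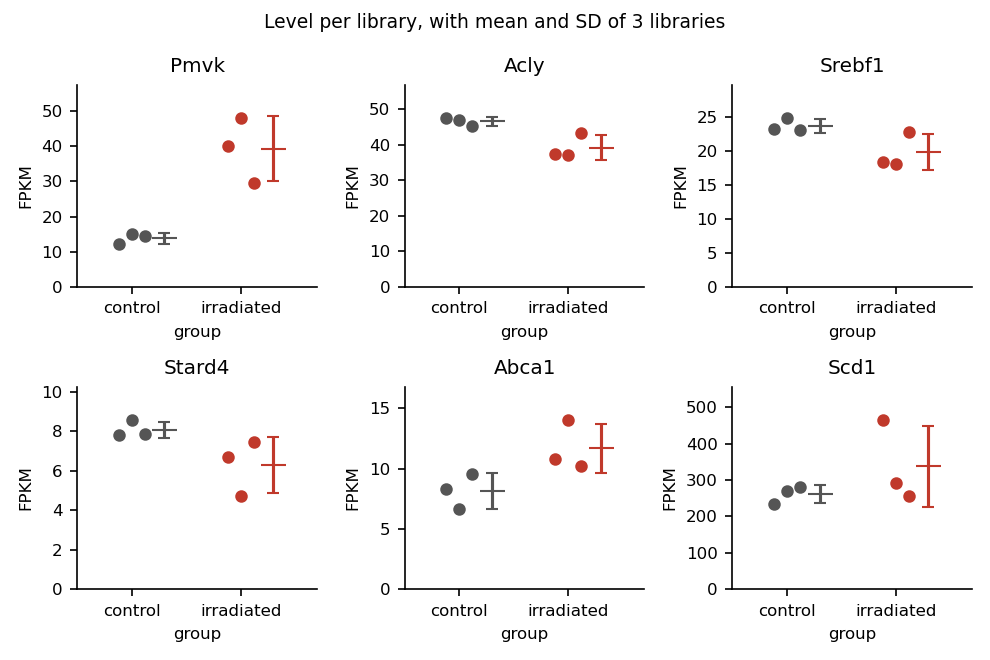
Level in FPKM (vertical axis, from 0) of 6 genes in each library, with the mean and SD of 3 libraries beside the points. The 3 irradiated points of Pmvk (29.6 to 48.0 FPKM) and Abca1 lie above all controls. Those of Acly, Srebf1 and Stard4 lie below all controls in the deposited FPKM of the reference entries. All 3 overlap after scaling to a common sum, Srebf1 also at its assembled locus, and Abca1 after median-ratio scaling. Scd1 is high in 1 irradiated library.

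Of the 6 genes of fatty acid synthesis, Acly was the 1 whose groups did not overlap. It splits citrate into the cytosolic acetyl-CoA that both branches use. Its level was 47.4, 47.1 and 45.2 FPKM in control lung and 37.3, 36.97 and 43.2 FPKM in irradiated lung. The irradiated libraries lay below the controls by a small margin in irradiated 3 and a larger one in the other two, and the log2 difference was −0.25 ± 0.09 (limma adjusted p = 0.236). With a common sum it was −0.12, and irradiated 3 (44.2 FPKM) then lay above control 2 (42.9 FPKM). Acss2, which makes acetyl-CoA from acetate, was at 11.6, 12.3 and 9.24 FPKM unexposed and 7.55, 8.10 and 11.9 FPKM after exposure, with irradiated 3 inside the range of the controls.

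Fasn, the fatty acid synthase, was at 40.1, 59.5 and 45.9 FPKM without radiation and 79.2, 50.7 and 47.5 FPKM with it. Me1, the malic enzyme that supplies NADPH to this synthesis, was at 23.5, 32.2 and 20.9 FPKM and at 39.1, 19.5 and 21.4 FPKM. Elovl6, which lengthens palmitate, was at 1.27, 3.39 and 1.16 FPKM and at 2.57, 0.974 and 1.32 FPKM. In all 3 genes the 2 highest libraries were control 2 and irradiated 1. They were chosen after their values were seen: 6 of the 37 genes had these top libraries (16.2%, against 8.36% of all genes tested), the others being Insig2, Elovl1 and Fads2, and Scd1 did not. These were also the 2 libraries with the highest sum of the 13 adipocyte markers. The markers reached 39.5, 638 and 67.2 FPKM in control lung and 311, 28.7 and 175 FPKM in irradiated lung, with Cfd, Fabp4 and Car3 the most abundant (218, 147 and 144 FPKM in control 2). Ucp1, of brown fat, was listed at 0 in 3 of the 6 libraries and did not exceed 0.161 FPKM. The part of fat cell RNA in the levels of Fasn, Me1 and Elovl6 was not tested.

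**Figure D4:**
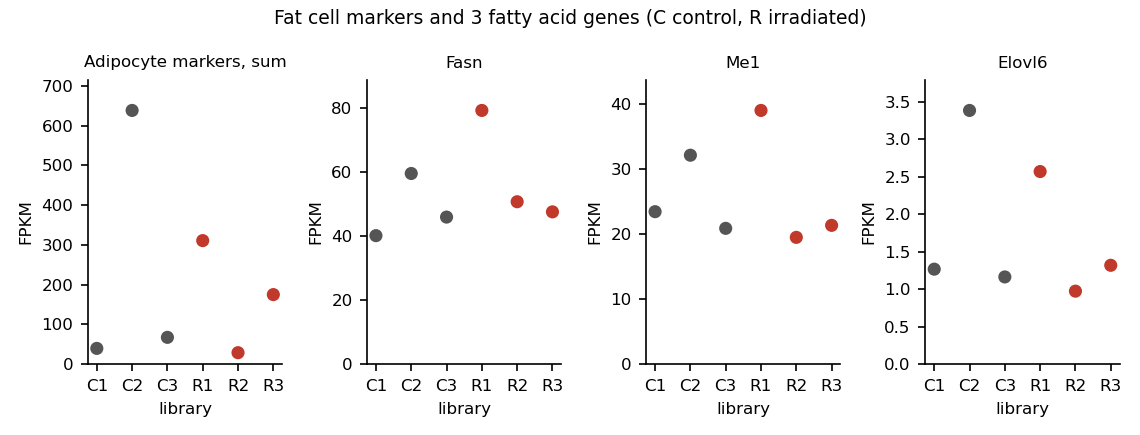
Summed FPKM of 13 adipocyte markers and the FPKM of Fasn, Me1 and Elovl6 in each library (C1 to C3 control, R1 to R3 irradiated, vertical axes from 0). Control 2 and irradiated 1 are the 2 highest libraries in each panel.

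Of the acetyl-CoA carboxylases, Acaca, which makes malonyl-CoA for synthesis, was at 5.33 ± 0.712 against 6.16 ± 1.24 FPKM, and Acacb, whose malonyl-CoA restrains fatty acid oxidation, at 1.42 ± 0.5502 against 1.63 ± 0.881 FPKM. Both had higher levels at their assembled loci, where the group means were 6.67 against 6.57 FPKM for Acaca and 2.59 against 2.47 FPKM for Acacb, so the sign of their small difference depends on which entry is read. The median log2 difference of the 6 genes was 0.05.

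Elongases and desaturases held the 4 highest levels of the 37 genes in control lung in FPKM. The ranking differed in coverage per Gb, where Elovl5 (mean 5.18 in control lung) lay below Fasn (46.2), and Elovl1 (71.9) below Scd2 (150). Scd1, a desaturase that makes oleate from stearate, was at 234, 269 and 281 FPKM in control lung and 464, 291.5 and 257 FPKM in irradiated lung. Irradiated 1 stood above the other 5 libraries, while irradiated 3 was among the control values (log2 difference 0.32 ± 0.22, limma adjusted p = 0.487). Its neighbour and paralog Scd2 was at 157, 129 and 165 FPKM unexposed and 143, 168 and 179 FPKM after exposure, so irradiated 1, the highest for Scd1, was the lowest irradiated library for Scd2. The ratio of Scd1 to Scd2 was 3.25 in irradiated 1 and 1.44 to 2.08 in the other 5. How the counting treated reads that match both paralogs is not given in the sources used here.

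Elovl1, an elongase of saturated very long chains, ranked between Scd1 and Scd2 in control lung by FPKM (161 ± 29.3 FPKM). It had the lowest log2 difference of the 37. It was at 152, 194 and 138 FPKM without radiation and 169, 87.1 and 109 FPKM with it, with irradiated 1 inside the range of the controls (−0.44 ± 0.26, limma adjusted p = 0.409). Elovl5, an elongase of polyunsaturated chains, was at 78.9 ± 4.83 against 80.6 ± 4.25 FPKM, with a 95% interval of the log2 difference from −0.19 to 0.25, among the narrowest of the 37. In FPKM, the levels of Scd2 and Elovl1 in control lung differed by less than their SD, and Elovl5 lay below both.

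Fads1 and Fads2, the desaturases that make polyunsaturated fatty acids, lie near each other on chromosome 19. Fads1 was at 35.5, 33.8 and 34.5 FPKM in control lung and 28.8, 24.5 and 36.9 FPKM in irradiated lung. Fads2 was at 18.4, 20.6 and 20.0 FPKM and at 20.2, 12.8 and 15.8 FPKM. Irradiated 2 was the lowest library for both, and the other irradiated libraries took opposite orders. The median log2 difference of the 7 elongases and desaturases was −0.13.

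Of the 2 exporters, Abca1 had groups that did not overlap and Abcg1 did not, and the difference between them was not tested. Abca1, which loads cholesterol and phospholipid onto apolipoproteins, was at 8.31, 6.62 and 9.57 FPKM unexposed and 10.8, 14.0 and 10.2 FPKM after exposure. All irradiated libraries lay above the controls and irradiated 2 was the highest (log2 difference 0.47 ± 0.16, limma adjusted p = 0.211). It was 0.22 without control 2 and irradiated 2. Abcg1, which passes cholesterol to mature lipoproteins and is abundant in alveolar macrophages, was at 13.2, 12.7 and 14.7 FPKM and at 12.9, 14.0 and 11.4 FPKM (−0.08 ± 0.10). Abca1 was highest in the library with the highest neutrophil sum (4823 FPKM), and the part of neutrophil RNA in its level was not tested. The 10 alveolar macrophage markers summed to 341 to 456 FPKM in control lung and 452 to 671 FPKM in irradiated lung, and Chil3, Car4 and Ear2 were the most abundant. Most of that gap was Chil3 alone (159 against 312 FPKM as means), and the other 9 summed to 214 to 281 FPKM and 219 to 287 FPKM. Marco, Fabp1 and Krt79, named after their values were seen, were lower in every irradiated library than in any control (6.56 against 1.79, 6.45 against 2.48 and 6.85 against 2.38 FPKM as means). Of the 10, 3 were thus lower and 1 (Chil3) higher without overlap (14.6% and 9.91% of all genes tested). The log2 differences of the 10 were positive in 5 and negative in 5, with a median of −0.05.

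Further genes of these pathways, from lists of other names, held no gene that passed over all genes tested either. Of 9 other genes of mevalonate and isoprenoid metabolism, 1 was higher and 2 lower at an unadjusted p under 0.05. Over all genes tested 7.41% were higher and 10.3% lower by this rule. The mitochondrial thiolase Acat1 (−0.40 ± 0.15) and the ferredoxin reductase Fdxr (−0.31 ± 0.13) were the lower ones. Of 10 further SREBP control genes tested, 0 had an unadjusted p under 0.05, with a median log2 difference of 0.05.

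Of 11 other fatty acid genes tested, 4 were lower and 0 higher at an unadjusted p under 0.05 (10.3% and 7.41% of all genes). Their median difference was −0.26. Mid1ip1, which helps acetyl-CoA carboxylase to polymerise and is an SREBP target, was at 87.4, 81.9 and 78.2 FPKM without radiation and 49.8, 57.7 and 57.7 FPKM with it. Its groups lay far apart relative to their spread (−0.58 ± 0.10), and it did not pass (limma adjusted p = 0.0773). Hacd3 (−0.37 ± 0.13) and Tecr (−0.36 ± 0.14), which complete each round of chain elongation, also had groups that did not overlap (limma adjusted p = 0.229 and 0.247). Of 12 sterol handling genes, 1 was lower at this p, Soat1, which esterifies cholesterol (20.8, 16.5 and 16.4 against 14.2, 13.4 and 12.8 FPKM, limma adjusted p = 0.176). The lipid transporter Abca7 (0.27 ± 0.12) and the LXR gene Nr1h3 (−0.30 ± 0.18) did not pass it.

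Among 16 tested genes of phosphatidylcholine and glycerolipid synthesis, 2 were higher and 2 lower at an unadjusted p under 0.05 (7.41% and 10.3% of all genes). Lpin1 and Lpin2, the phosphatases that make diacylglycerol, were the higher ones. Lpin1 was at 6.72, 7.75 and 6.47 FPKM in control lung and 11.6, 14.0 and 11.3 FPKM in irradiated lung (0.74 ± 0.11, limma adjusted p = 0.0652), and Lpin2 at 32.8, 29.7 and 36.0 against 43.2, 52.5 and 44.4 FPKM (0.49 ± 0.11, adjusted p = 0.112). Lpcat1, which remodels lecithin into the saturated form used in surfactant, was at 114, 101 and 108 FPKM and at 73.7, 51.6 and 96.6 FPKM (−0.58 ± 0.22, adjusted p = 0.236). The second lower gene in this list was the acyltransferase Agpat1 (−0.28, adjusted p = 0.238), named after its value was seen.

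The 12 surfactant and lamellar body genes, which include Lpcat1, had 7 lower and 1 higher at an unadjusted p under 0.05 (10.3% and 7.41% of all genes). Their median was −0.33, beside −0.06 for the 37 lipid genes and −0.03 for all genes. Sftpc, the gene of surfactant protein C, had the smallest p (−0.77 ± 0.14, limma adjusted p = 0.0793), followed by the lamellar body gene Lamp3 (−0.53 ± 0.13, adjusted p = 0.121). The cathepsin gene Ctsh, of a protease that processes surfactant proteins, was the higher one (0.35 ± 0.10, adjusted p = 0.162). In irradiated 1 to 3 the median of these 12 genes lay at −0.27, −0.44 and −0.18 relative to the control mean, below 0 in each, while that of the 15 sterol enzymes was at 0.01, −0.41 and 0.34. The difference between the lists was not tested.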

How the data were processed

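PolyA RNA of whole lung was sequenced on a DNBSEQ-T7 after TRIzol extraction, per the labels' protocols, in 3 control and 3 irradiated libraries. Tools listed in the submitters' processing notes are fastp, DESeq2 and STAR 2.7.6a, and the build is GRCm39. Which program wrote the gene tables, with what strand setting and annotation, is not given in the sources used here. The values are the FPKM the authors deposited, per the file headers. The coverage that the authors deposited as a second signal, per the file headers, served to estimate depth, from its commonest ratio to FPKM, and as coverage per Gb. The deposited TPM was not used, because it sums to about 2 times what TPM should: each table lists reference genes and, beside them, loci assembled from that library.

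Named entries were summed per gene. The files hold no counts, so no counting interval is given, and a count model named as a possibility in the design was not used. Genes whose mean reached 1 FPKM were tested with limma 3.58.1 (R 4.3.3), with trend and robust variance, on log2(FPKM + 1), where 1 is the pseudocount, with the group as the only term. The difference is irradiated minus control, ± its SE, and understates the change of low genes. P-values were adjusted over all 13908 genes tested (Benjamini-Hochberg, called under 0.05). Procedures were tested on simulated data. Python 3.11.15 with pandas 2.3.3 did the rest.

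The members and lists were chosen with earlier results of these data known. All 37 members may be named, together with the 3 genes of smallest p in each further pathway list and the 3 most abundant of each marker list. Some genes that this rule takes are not reported here. The markers are of adipocytes, alveolar type 2 cells, alveolar macrophages, lipofibroblasts, neutrophils, cardiac muscle, red cells and the clock. Coordinates are those of the files. Promoter windows were matched by symbol in the RefSeq table of GRCm38.p6, and only their 250 bases before the start were read. Chromosome numbers were assigned by gene symbol. Alternatives were other pseudocounts, filters, scalings and variance estimates, a replicate block, and each library left out in turn. The assembled loci as values, and leaving out control 2 and irradiated 2 together, were added after seeing the data.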

Additional observations from a re-analysis of the deposited data

How the results depend on the processing

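With limma the count of genes called over all genes, 25, was 38 with a minimum of 5 FPKM, 13 with a common sum, 11 with median-ratio scaling, 0 with no filter, 0 with the replicate block, 9 without control 2 and irradiated 2, and 0 to 118 over the settings that leave libraries out. For the counts of 0, an unadjusted p under 0.05 was reached by 3531 genes with no filter, 1623 with the block, 1910 without control 1 and 1645 without control 3. By library it was 0 without control 1, 1 without control 2, 0 without control 3, 101 without irradiated 1, 3 without irradiated 2 and 118 without irradiated 3. The count of members called was 0, and it was 1 (Pmvk) with a minimum of 5 FPKM, 1 with assembled locus values and 0 to 1 without a single library. It was 0 with the replicate block too (1 at an unadjusted p under 0.05, against 3), and same-numbered libraries did not deviate together (correlations of −0.17, −0.54 and −0.28). Pmvk kept its sign in 17 of 17 alternatives (1.27 to 1.60, limma adjusted p from 0.0324 to 0.282, the highest with the replicate block).

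Of the 37 members, 15 kept their sign in every alternative run. The values whose sign turned were at most 0.38 in size, and none passed the threshold. The common sum moved the median of all genes from −0.03 to 0.08, and it turned Hmgcs1 (0.061), Fdps (0.042), Nsdhl (0.0504), Hsd17b7 (0.065), Sc5d (0.089), Dhcr7 (0.076), Srebf2 (0.019), Insig1 (0.041), Insig2 (0.056) and Abcg1 (0.0396). Median-ratio scaling turned Sc5d (0.0057) and Dhcr7 (0.0091), and assembled locus values turned Acaca (−0.024) and Acacb (−0.069).

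Leaving out 1 library, or control 2 and irradiated 2 together, gave ranges across 0 for Acat2 (−0.13 to 0.32), Hmgcs1 (−0.30 to 0.30), Idi1 (−0.36 to 0.091), Fdps (−0.30 to 0.15), Fdft1 (−0.062 to 0.42), Sqle (−0.22 to 0.44), Cyp51 (−0.35 to 0.23), Msmo1 (−0.51 to 0.067), Nsdhl (−0.15 to 0.17), Hsd17b7 (−0.25 to 0.26), Sc5d (−0.16 to 0.17), Dhcr7 (−0.25 to 0.23), Srebf2 (−0.28 to 0.084), Insig1 (−0.34 to 0.30), Insig2 (−0.13 to 0.012), Me1 (−0.29 to 0.37), Acacb (−0.15 to 0.45), Elovl5 (−0.022 to 0.078), Elovl6 (−0.38 to 0.38) and Scd2 (−0.0089 to 0.21). Over the same settings the role medians ran from −0.19 to 0.25 for the sterol pathway, −0.31 to 0.048 for SREBP control (lowest without irradiated 3), −0.11 to 0.38 for fatty acid synthesis (highest without control 2 and irradiated 2), −0.22 to 0.013 for elongases and desaturases and 0.015 to 0.28 for the exporters (lowest without control 2 and irradiated 2). The settings that leave out both libraries and that use assembled loci were chosen after seeing the data. Of genes that kept their sign over these settings, Fasn ran from 0.036 to 0.51, Scd1 from 0.071 to 0.50, Elovl1 from −0.71 to −0.092, Abca1 from 0.22 to 0.58 and Stard4 from −0.45 to −0.13. The cause of these shifts was not tested.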

Other observations

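Of the marker lists, no gene passed over all genes tested in any. At an unadjusted p under 0.05 with limma, 7.41% of all genes tested were higher and 10.3% lower. The 10 alveolar type 2 markers, which share 8 genes with the surfactant list, had 5 lower and 0 higher at an unadjusted p under 0.05 with limma (median −0.33), and summed to 19328 to 21458 FPKM in the controls and 12451 to 13908 FPKM in the irradiated libraries. The 6 lipofibroblast markers, led by Tcf21, Gyg and Plin2, had 1 higher and 2 lower (median 0.04), and the lipid droplet coat gene Plin2 was at 39.9, 57.9 and 47.2 FPKM unexposed and 72.1, 53.4 and 43.9 FPKM after exposure. Of 10 alveolar macrophage markers 1 was higher and 3 were lower by this rule. The medians over the tested markers were 2.53 for neutrophils (8 of 8 positive), 0.76 for red cells (5 of 5 positive), 0.04 for adipocytes and −0.38 for cardiac muscle, with 0 genes at an unadjusted p under 0.05 in these 4 lists.

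Lipid synthesis follows the time of day and feeding in many tissues, and the time of sampling is not given in the labels. Of 11 clock genes tested, 4 were higher and 2 lower at an unadjusted p under 0.05 (7.41% and 10.3% of all genes). Nr1d1, a clock repressor, was at 109, 101 and 66.1 FPKM without radiation and 47.8, 34.5 and 49.1 FPKM with it, Dbp, a clock output factor, at 94.98, 85.9 and 55.7 against 43.6, 26.2 and 50.7 FPKM, and Tef, of the same family, at 79.7, 69.3 and 59.6 against 83.0, 91.0 and 89.9 FPKM. The groups of these 3 genes did not overlap. Of the 11, 3 were higher and 2 lower without overlap (9.91% and 14.6% of all genes tested). The median log2 difference of the 11 was 0.08. The part of sampling time in the lipid genes was not tested.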
